A study of Mus musculus with 12 samples.

Results

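The 12 arrays of the study were compared as cells that carried an introduced IDH1 gene against cells that carried an empty vector, with 6 arrays on each side, which is every array of the series. The 6 construct arrays were 3 of IDH1wt and 3 of IDH1mut. The 6 vector-only arrays were 3 of empty vector and 3 of R-2HG, the group with empty vector cells in mice that received R-2HG. All cells were bone marrow cells of C57BL6 mice immortalised with HoxA9. This homeobox protein blocks the maturation of myeloid progenitors and lets them keep growing. The IDH1wt cells carried the retroviral construct pSF91-IDH1wt-IRES-EGFP, the IDH1mut cells carried pSF91-IDH1mut-IRES-GFP, and the other cells carried the vector without IDH1. All were transplanted into irradiated mice. R-2HG was given at 1 mg per day over 4 weeks, and GFP-positive cells were sorted from the marrow of all groups at 4 weeks. The labels name neither the amino acid change of IDH1mut nor the mouse substrain nor the age of the mice, and they do not say whether a group was 1 or several transductions. For the R-2HG samples 1 field, the description, gives the IDH1mut vector. Their title, source name and construct field give the empty vector, and this was followed. Nothing in the labels ties the replicates of a group to different mice, so all p-values rest on variation among these arrays that could be technical.

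IDH1 is a cytosolic and peroxisomal enzyme that turns isocitrate into 2-oxoglutarate and makes NADPH. Its cancer-associated mutants use NADPH to reduce 2-oxoglutarate to R-2-hydroxyglutarate (2HG), which inhibits dioxygenases such as the TET enzymes. The 4 groups therefore formed a layout of construct (vector only or IDH1) by 2HG exposure (none, or exposed through dosing or through the mutant enzyme). The comparison asked which genes followed the construct in both exposure classes. These classes were assigned from the group labels. No 2HG level was available, so with and without 2HG below refer to the assigned class. The construct difference was the mean of IDH1wt minus empty vector, the stratum without 2HG, and IDH1mut minus R-2HG, the stratum with 2HG. These strata share no array. In the stratum with 2HG the construct was mutant and in the other it was wild type, so an effect of the exposure and of the mutation on the construct difference cannot be told apart.

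The largest construct differences in each direction belonged to Bex1 and to the heat shock genes Hspa1a and Hspa1b. Their promoters are shown because each of these genes has a copy nearby, Bex4 for Bex1, that was also higher or lower with it. Promoters are not transcribed, so they say nothing of whether the probe sets separate the copies. The sequences are the 250 bases before the RefSeq gene start (GRCm38.p6), 5′ to 3′ on the gene's strand. Hspa1a lies at chr17:34972157-34972406 and Hspa1b at chr17:34959239-34959488, both on the minus strand. The capitals mark GAANNTTC, the core of the heat shock element that the heat shock factors bind, searched on both strands, which for this palindrome is 1 search.
Hspa1a: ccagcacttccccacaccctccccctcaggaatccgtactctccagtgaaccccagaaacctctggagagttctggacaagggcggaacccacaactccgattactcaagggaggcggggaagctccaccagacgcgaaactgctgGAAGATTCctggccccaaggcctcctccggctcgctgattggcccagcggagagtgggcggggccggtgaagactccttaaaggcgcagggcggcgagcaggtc
Hspa1b: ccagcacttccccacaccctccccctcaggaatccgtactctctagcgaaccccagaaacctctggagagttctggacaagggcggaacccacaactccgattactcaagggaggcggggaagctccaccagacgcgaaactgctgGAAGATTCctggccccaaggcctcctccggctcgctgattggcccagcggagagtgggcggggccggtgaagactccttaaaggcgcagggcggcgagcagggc
Both promoters held 1 match, which began 104 bases before the start, and the sequences differed at 3 of 250 positions. Bex1 lies at chrX:136215514-136215763 on the minus strand and Bex4 at chrX:136138746-136138995 on the plus strand. Capitals mark the bases that differed, or had no partner, when the 2 sequences were set against each other without gaps.
Bex1: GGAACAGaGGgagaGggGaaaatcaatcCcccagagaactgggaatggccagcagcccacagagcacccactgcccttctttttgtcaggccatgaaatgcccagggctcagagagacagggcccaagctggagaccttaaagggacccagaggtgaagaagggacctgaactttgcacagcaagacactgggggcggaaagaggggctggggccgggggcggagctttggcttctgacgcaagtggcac
Bex4: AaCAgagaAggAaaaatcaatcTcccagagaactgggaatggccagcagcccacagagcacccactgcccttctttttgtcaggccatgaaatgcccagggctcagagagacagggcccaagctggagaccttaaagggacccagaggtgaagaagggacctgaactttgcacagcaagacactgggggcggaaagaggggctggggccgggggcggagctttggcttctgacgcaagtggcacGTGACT
Of 244 aligned positions 238 were identical, and the longest identical run was 221 bases. The motif GAANNTTC was in neither. Over the windows of 300 bases around the start, it was in 7.86% of 32851 promoters and in those of 3 of the 35 construct-following genes below that had a RefSeq window, namely Hspa1a, Hspa1b and Cr1l.

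The values are log2 expression values with each probe set centred. They show how arrays differ but not how strongly a gene is expressed, and whether the sorted cells express their myeloid markers cannot be read from them. A gene's value was the mean of its probe sets with 1 gene symbol, which gave 15858 genes. Every array had a median of 0. For 2 arrays of 1 group the SD of their difference was 0.178 to 0.362, and for arrays of different groups it was 0.294 to 0.555. R-2HG replicates 1 and 2 stood apart on the first principal component (45.9% of the variance), at 43.04 and 44.61. R-2HG replicate 3 lay at 13.42 and no other array above 0.49.

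A limma model with 4 group means called 3992 of 15858 genes (25.2%) for the construct at a Benjamini-Hochberg adjusted p under 0.05, of which 2057 (13%) were higher and 1935 (12.2%) were lower with the construct. The strata contributed unequally. IDH1wt against empty vector called 214 genes (1.35%), 125 higher and 89 lower, whereas IDH1mut against R-2HG called 5714 (36%), 3212 higher and 2502 lower. Across the 15858 genes the differences of the strata correlated with Pearson's r = 0.264 and Spearman's rho = 0.238, and 59% had the same sign. This is a description across genes, which share arrays and are not independent. The median absolute difference was 0.104 without and 0.211 with 2HG.

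The count of construct genes therefore depended on how the 2HG exposure was treated and on the R-2HG arrays. A plain fit of 6 against 6 arrays, which counts the exposure as spread, called 144 genes, and a fit with additive construct and exposure terms called 2042. Without R-2HG replicates 1 and 2 the 4-group fit called 666, without R-2HG replicate 1 alone 2492, without replicate 2 alone 2289 and without empty vector replicate 3 2584. A further minimum of 1.5-fold left 292 genes, 247 higher and 45 lower.

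Genes were taken to follow the construct when they passed in the mean difference and in both strata, had the same sign in both, and had 6 construct arrays that did not overlap with the 6 vector-only arrays. For these genes the absence of overlap was therefore a condition and is not a separate result. Of all genes, 451 (2.84%) had arrays that did not overlap, 240 (1.51%) higher and 211 (1.33%) lower, and 439 of these were also called. Both strata called 83 genes (0.523%) in the same direction and 22 (0.139%) in opposite directions. The full rule was met by 49 genes (0.309%), 28 higher (0.177%) and 21 lower (0.132%) with the construct. After a second quantile normalization it was met by 79 genes, 55 higher and 24 lower. Of the 83 genes called the same way in both strata, 34 had overlapping arrays.

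All 49 genes kept their call in the mean difference when each of the 12 arrays was left out in turn. In 14 of them both strata also kept their call each time. The number of genes that met the rule fell to 25 and 22 without empty vector replicates 2 and 3, to 26 without IDH1wt replicate 3 and to 30 without R-2HG replicate 1, and rose to 93 without R-2HG replicate 3. It was 29 without R-2HG replicates 1 and 2, of which 15 were among the 49. With those 2 arrays left out, 48 of the 49 still passed in the mean difference. The plain fit of 6 against 6 arrays called 43 of the 49. Under every alternative that tested them, 10 genes met the rule: Bex1, Erdr1, Lrmda, Tmem267, Zfp932 and Prkar2b, which were higher, and Egr1, Wdfy1, Pisd-ps3 and Azgp1, which were lower.

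**Figure D1:**
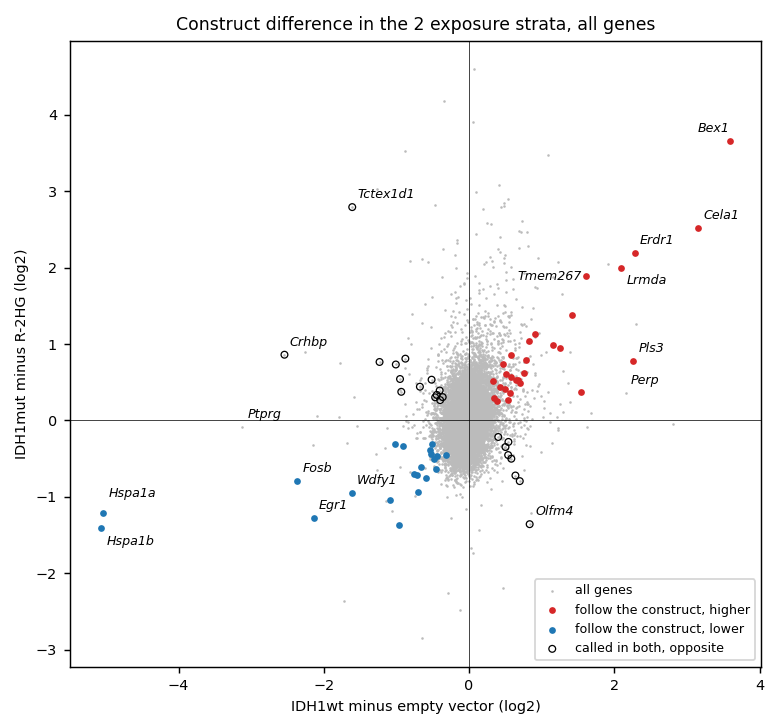
Construct difference of each of 15858 genes without 2HG (IDH1wt minus empty vector, x axis) and with 2HG (IDH1mut minus R-2HG, y axis), in log2 units. Red and blue points are the 28 higher and 21 lower genes that follow the construct, and open circles the 22 genes called in opposite directions. Bex1 lies near 3.6 on both axes, while Hspa1a and Hspa1b lie near -5 on the x axis and above -1.5 on the y axis.

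The genes of the IDH reaction did not pass the test for the construct. Idh1 itself ranged from -0.19 to 0.21 in the construct arrays (median -0.04) and from -0.03 to 0.34 in the vector-only arrays (median 0.12). The groups overlapped, and the difference was -0.17 ± 0.08 (SE, 6 against 6 arrays; limma adjusted p = 0.126). The 2 Idh1 probe sets differed by -0.23 and -0.11, and neither passed. Whether they detect the introduced sequence is not known here, so they do not check the labels. Idh2, the mitochondrial NADP-dependent enzyme, differed by 0.14 (adjusted p = 0.112), but its strata differed from each other (interaction 0.54, adjusted p = 0.023), with -0.13 without and 0.41 with 2HG. D2hgdh, which oxidises R-2HG back to 2-oxoglutarate, differed by 0.16 (adjusted p = 0.0977) and Idh3a, a subunit of the NAD-dependent enzyme, by 0.06 (adjusted p = 0.539). Their probe sets did not move alike. For D2hgdh, 1437840_s_at passed (0.27, adjusted p = 0.0201) and 1437243_at did not (0.04). For Idh3a, 1432016_a_at was higher (0.24, adjusted p = 0.0208), 1447701_x_at was lower (-0.44, adjusted p = 0.0288), and the others did not pass.

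Of 30 measured genes for IDH, 2HG and tricarboxylic acid (TCA) cycle enzymes, 11 were called higher and 0 lower, against 13% and 12.2% of all genes, with a median of 0.11 against -0.02 over all genes. In the stratum without 2HG the list called 0 genes, where 1.35% of all genes were called. In IDH1mut against R-2HG 12 were called higher, against 20.3% of all genes. Suclg2, a subunit of succinyl-CoA synthetase, had the smallest p, at 0.14 (adjusted p = 0.57) without and 0.80 (adjusted p = 0.000969) with 2HG. Pdha1, a subunit of pyruvate dehydrogenase, stood at 0.15 (adjusted p = 0.469) and 0.51 (adjusted p = 0.00289). The glutamate and NADPH genes fixed for the comparison, Glud1, Pgd and Me1, did not pass in the mean difference (-0.03, -0.03 and -0.17). Acod1, which makes itaconate from the TCA cycle intermediate cis-aconitate, did follow the construct. It ranged from 0.71 to 1.34 (median 0.87) with the construct and from -0.59 to 0.47 (median -0.07) without, and differed by 1.02 ± 0.13 (SE; adjusted p = 0.00102). Its call in the stratum without 2HG was lost without empty vector replicate 3 (adjusted p = 0.166).

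The highest gene with the construct was Bex1, a small X-linked adaptor protein named for its expression in brain. It stood at 4.10, 2.51 and 3.69 in IDH1wt and at 2.00, 4.45 and 3.32 in IDH1mut. It stood at 0.11, 0.00 and -0.59 in empty vector and at -0.45, -0.39 and -0.36 in R-2HG. The construct arrays were all above the vector-only arrays and also spread most among themselves. The difference was 3.62 ± 0.36 (SE), or 12.3-fold (adjusted p = 0.000186), with 3.59 without and 3.65 with 2HG.

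Bex1 was not alone on its stretch of the X chromosome, a cluster of Bex and Tceal genes that encode small related proteins. The measured genes next to it in RefSeq order were looked at after their values were seen. Tceal8 lay between 1.31 and 2.62 in IDH1wt, 0.00 and 1.5 in IDH1mut, -0.23 and 0.32 in empty vector, and -1.36 and -1.19 in R-2HG. It passed in both strata (1.91, adjusted p = 0.0204, and 2.04, adjusted p = 0.00223), but IDH1mut replicate 1 overlapped with the empty vector arrays. Bex4, whose promoter is nearly that of Bex1, lay between 0.87 and 2.59 with the construct and between -0.39 and 0.02 without. Its groups did not overlap, and it differed by 1.51 ± 0.23 (adjusted p = 0.00225), with an adjusted p of 0.106 in the stratum without 2HG. On the other side, Tceal9, Bex3 and Tceal1 differed by 0.20, 0.58 and 0.26, and of these Bex3 passed (adjusted p = 0.0298), with R-2HG arrays at -1.58, -1.27 and -0.27 and no other array below -0.04. Whether the Bex1 and Bex4 probe sets cross-detect each other was not tested.

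**Figure D2:**
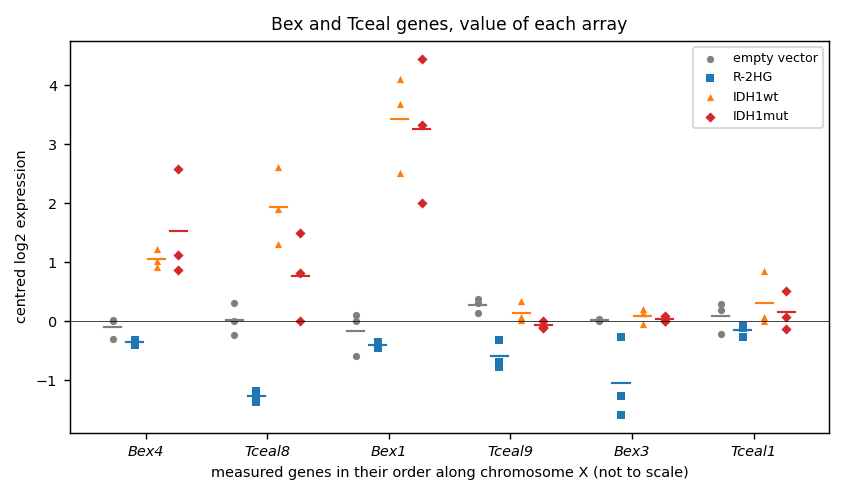
Centred log2 expression of 6 neighbouring X-linked genes in the 12 arrays, 1 point per array with a bar at each group mean. In Bex4 and Bex1 all IDH1wt and IDH1mut arrays lie above the empty vector and R-2HG arrays. Tceal8 overlaps in 1 array. In Tceal9 and Bex3 the construct arrays overlap with the empty vector arrays and lie above the R-2HG arrays. In Tceal1 they overlap with both.

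Pls3 and Map3k5 rose more without than with 2HG, and Arhgap5 rose in both strata. Pls3, an X-linked actin-bundling protein, ranged from 1.86 to 2.80 in IDH1wt, 0.25 to 0.78 in IDH1mut and -0.49 to 0.17 in the vector-only arrays. The groups did not overlap, but the difference was 2.26 without and 0.78 with 2HG, and the strata differed (interaction -1.49, adjusted p = 0.0157). Without R-2HG replicate 2 Pls3 lost its call with 2HG (adjusted p = 0.0613). Arhgap5, a GTPase-activating protein, ranged from 0.18 to 0.85 against -0.71 to -0.21 and differed by 1.07 ± 0.12 (adjusted p = 0.000538). Its strata gave 1.16 and 0.98 (interaction -0.17, adjusted p = 0.67). Map3k5, the stress-activated kinase ASK1, differed by 1.54 without and 0.38 with 2HG (interaction adjusted p = 0.00782). Without IDH1mut replicate 1 its call with 2HG was lost (adjusted p = 0.126).

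Cela1, an elastase-family serine protease, stood at 3.51, 2.04 and 3.04 in IDH1wt and 1.56, 1.83 and 1.30 in IDH1mut. It lay from -0.33 to -0.26 in empty vector and at -1.33, -1.26 and -0.28 in R-2HG. No arrays overlapped, and the difference was 2.83 ± 0.24 (SE), or 7.13-fold (adjusted p = 5.13e-05). Without R-2HG replicates 1 and 2 its stratum with 2HG stood at 1.84 (adjusted p = 0.0505). Ppic, the prolyl isomerase cyclophilin C, ranged from 0.74 to 1.96 against -0.33 to 0.09 and differed by 1.40 ± 0.17 (adjusted p = 0.00073). Its call without 2HG was lost without IDH1wt replicate 3 (adjusted p = 0.0694). Ear3, an eosinophil-associated ribonuclease, differed by 1.11 ± 0.15 (adjusted p = 0.00115). Without IDH1wt replicate 3 its call without 2HG was likewise lost (adjusted p = 0.0675).

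Erdr1, Lrmda, Tmem267, Zfp932 and Prkar2b rose by similar amounts in both strata. Erdr1, named as an erythroid differentiation regulator, lay between 0.41 and 0.56 in IDH1wt, -0.20 and 0.27 in IDH1mut, -2.0 and -1.44 in empty vector and -2.31 and -1.97 in R-2HG. It differed by 2.23 ± 0.11 (SE), or 4.7-fold (adjusted p = 7.34e-07), and the strata gave 2.28 and 2.19. Lrmda, named for melanocyte differentiation, ranged from -0.07 to 0.60 with the construct and from -1.86 to -1.60 without. It differed by 2.05 ± 0.08 (adjusted p = 1.94e-07). In both genes the lowest construct array lay more than 1 log2 unit above the highest vector-only array. Tmem267, a transmembrane protein of little-known function, ranged from 0.48 to 1.06 against -1.42 to -0.51 and differed by 1.75 ± 0.09 (adjusted p = 7.34e-07). Zfp932, a zinc finger protein, ranged from 0.00 to 0.33 against -0.94 to -0.55 and differed by 0.93 ± 0.05 (adjusted p = 2.32e-06). Prkar2b, a regulatory subunit of protein kinase A, ranged from 0.34 to 0.55 against -0.43 to -0.23 and differed by 0.79 ± 0.05 (adjusted p = 8.34e-06). In none of the 5 genes did the interaction pass (lowest adjusted p = 0.21).

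Wdfy1, Pisd-ps3, Azgp1 and Nnt fell with the construct in both strata. Wdfy1, an endosomal protein with WD repeats and a FYVE domain, ranged from -0.84 to -0.77 in IDH1wt, -0.15 to 0.18 in IDH1mut and 0.71 to 1.04 in the vector-only arrays. It differed by -1.28 ± 0.07 (adjusted p = 1.28e-06), more without than with 2HG (interaction 0.67, adjusted p = 0.0187). Pisd-ps3, a pseudogene of phosphatidylserine decarboxylase, ranged from -0.64 to 0.09 against 0.25 to 1.18 and differed by -1.17 ± 0.10 (adjusted p = 4.574e-05). As a pseudogene it may share signal with its parent gene. Azgp1, a secreted zinc-binding glycoprotein, ranged from -0.66 to -0.27 against 0.33 to 1.01 and differed by -1.07 ± 0.11 (adjusted p = 0.000174).

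Nnt, the mitochondrial transhydrogenase that makes NADPH from NADH, ranged from -0.32 to 0.11 with the construct and from 0.43 to 0.61 without. The groups did not overlap, and the difference was -0.63 ± 0.07 (SE; adjusted p = 0.000315), with -0.66 without and -0.61 with 2HG. Without R-2HG replicates 1 and 2 the latter was -0.54 (adjusted p = 0.0803). Nnt was the only gene of the 35 measured in the NADPH and glutathione list that followed the construct. Of that list 9 were called higher and 4 lower, against 13% and 12.2% of all genes, and in the stratum without 2HG 0 and 3, against 0.788% and 0.561%. C57BL/6J mice carry a deletion within Nnt that C57BL/6N mice lack, and the labels give no substrain. Whether the construct and vector-only cells differed in substrain was not tested, for Nnt or for the other construct-following genes, Wdfy1 and Erdr1 among them. Of the 3 measured genes on each side of Nnt in RefSeq order, Mrps30 (0.28, adjusted p = 0.00199), 4833420G17Rik (0.18, adjusted p = 0.0363) and Tmem267 rose, and Emb, Fgf10 and Paip1 did not pass (adjusted p = 0.333, 0.693 and 0.733). Beyond Tmem267, Ccl28, a chemokine, differed by -0.24 (adjusted p = 0.018). Hmgcs1, an enzyme of cholesterol synthesis, differed by 0.28 (adjusted p = 0.00335), with arrays that did not overlap. These neighbours were looked at after their values were seen.

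Single probe sets of these genes did not all move alike. For Nnt, 1416105_at and 1456573_x_at differed by -0.91 and -1.18, whereas 1432608_at stood at 0.19 (adjusted p = 0.118). The Lrmda probe sets differed by 3.96 (1430886_at), 1.85 (1430887_s_at) and 0.33 (1431988_at). For Wdfy1, 3 probe sets lay between -1.66 and -1.53 and 1453426_a_at at -0.32. For Pisd-ps3, 3 lay between -2.07 and -1.56 and the other 2 at -0.33 and -0.25, both of which passed with 2HG and not without. Calls of single probe sets in the mean difference were counted for the 20 construct-following genes with more than 1 probe set. Of these genes, 14 had all probe sets called in the direction of the gene, and 0 had one called in the opposite direction. The genes were chosen by the mean of these same probe sets, so this agreement is partly built in. Its share among other genes is not given here. Where probe sets spread, their mean understates the difference seen by some of them. Calls of single probe sets did not always hold within the strata. No Il15ra probe set passed in either stratum, no Lipg probe set with 2HG and no Cttnbp2nl probe set without 2HG. No single probe set of Mtus2 or 4632427E13Rik passed in both strata. For Sema4f, 1439768_x_at differed by 1.24 in the mean difference and 1419328_at by 0.20 (adjusted p = 0.154). For Kcnk5, 1421852_at differed by 0.87 and 1450398_at by 0.05 (adjusted p = 0.69).

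**Figure D3:**
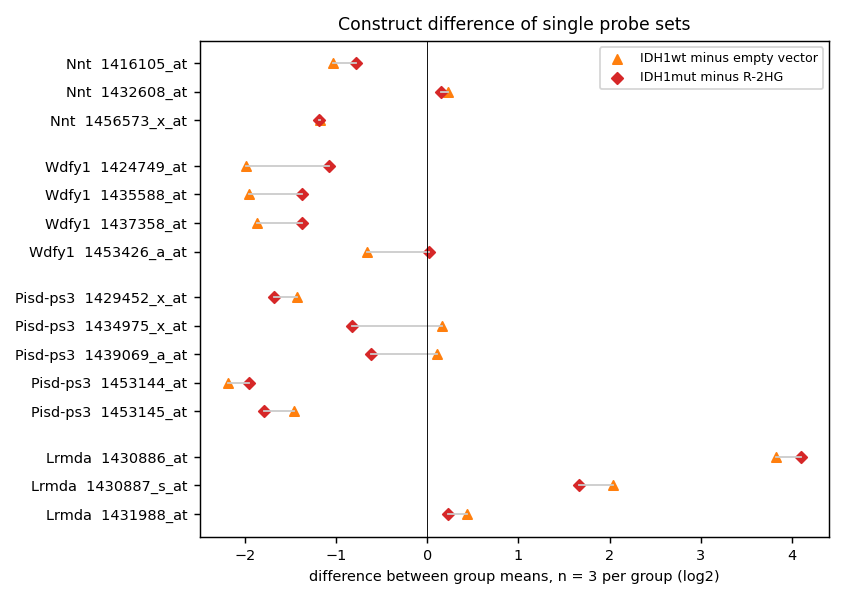
Difference between group means for each probe set of Nnt, Wdfy1, Pisd-ps3 and Lrmda, without 2HG (triangles) and with 2HG (diamonds), 3 arrays per group, in log2 units. Probe sets of 1 gene spread widely, from 0.33 to 3.96 in the mean difference for Lrmda, and 2 of the 5 Pisd-ps3 probe sets lie above 0 without 2HG and below 0 with it.

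The lowest genes with the construct were Hspa1b and Hspa1a, neighbouring genes for the inducible chaperone HSP70. Hspa1a stood from 3.77 to 3.91 in empty vector, at 0.38, 0.32 and 1.70 in R-2HG, from -1.42 to -0.77 in IDH1wt and from -0.82 to -0.18 in IDH1mut. The empty vector arrays were far above all others, and R-2HG replicate 3 was above replicates 1 and 2. The difference was -3.12 ± 0.22 (SE; adjusted p = 1.31e-05), with -5.03 without and -1.21 with 2HG, and the strata differed (interaction 3.83, adjusted p = 0.00215). Hspa1b differed by -3.24 ± 0.26, with -5.06 and -1.41. The genes are near-identical copies, and whether their probe sets separate them was not tested. Without IDH1mut replicate 2 the calls with 2HG were lost (adjusted p = 0.0511 for Hspa1a and 0.0522 for Hspa1b).

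More of the other chaperones passed in the stratum with 2HG than without, as did more of all genes. Of 16 other heat shock chaperones measured, 0 were called in IDH1wt against empty vector (differences from -0.379 to 0.163), where 1.35% of all genes were called. In IDH1mut against R-2HG 5 were called higher and 3 lower, against 20.3% and 15.8% of all genes. The 3 lower were Hspb1 (-0.26, adjusted p = 0.0403), a small heat shock protein, Bag3 (-0.42, adjusted p = 0.0262), a cochaperone of HSP70, and Serpinh1 (-0.45, adjusted p = 0.0317), a collagen chaperone. Of Hspa8, the constitutive HSP70, 1 of the 4 probe sets, 1431182_at, fell in IDH1wt against empty vector (-1.27, adjusted p = 0.0116), while the gene did not pass (-0.38, adjusted p = 0.194). In the mean difference 1 of the 16 was called, against 25.2% of all genes. That one, Hsph1, was higher with the construct (0.67, adjusted p = 0.0418). R-2HG replicates 1 and 2 stood at -1.44 and -1.49 and the other arrays between -0.11 and 0.53.

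Immediate early genes, whose transcription starts within minutes of a growth signal or stress, were the list with the most construct-following members. Of 24 measured, 9 were called lower and 1 higher (median -0.14), against 12.2% and 13% of all genes, and 4 followed the construct: Egr1, Fosb, Ier2 and Ier3. In IDH1wt against empty vector 8 were called lower and 0 higher, against 0.561% and 0.788% of all genes, and in IDH1mut against R-2HG 6 lower and 2 higher, against 15.8% and 20.3%. Egr1, a zinc finger transcription factor, stood at 0.83, 1.07 and 1.15 in empty vector and -0.05, 0.00 and 0.34 in R-2HG. It stood at -1.42, -0.78 and -1.17 in IDH1wt and -0.84, -1.5 and -1.20 in IDH1mut. No arrays overlapped, and it differed by -1.71 ± 0.13 (SE; adjusted p = 2.923e-05).

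Fosb, an AP-1 transcription factor subunit, ranged from -1.13 to -0.41 with the construct and from -0.10 to 1.79 without. Its difference was -1.58 ± 0.20 (adjusted p = 0.000916), and its stratum with 2HG lost its call without R-2HG replicate 3 (adjusted p = 0.138). Ier3 and Ier2, immediate early response genes, differed by -0.73 ± 0.11 and -0.48 ± 0.06, and both lost their call without 2HG without IDH1wt replicate 3 (adjusted p = 0.119 and 0.0596). Jun, the partner of Fos in AP-1, passed in both strata (-1.31 and -0.81) with overlapping arrays. Its probe set 1448694_at did not pass with 2HG (-0.23, adjusted p = 0.312). Fos was called in the stratum without 2HG (-1.68, adjusted p = 0.00811) and not in the other (-0.29, adjusted p = 0.394). Egr2 was the member called higher (0.31, adjusted p = 0.0254). The labels give no times between tissue collection and sorting.

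**Figure D4:**
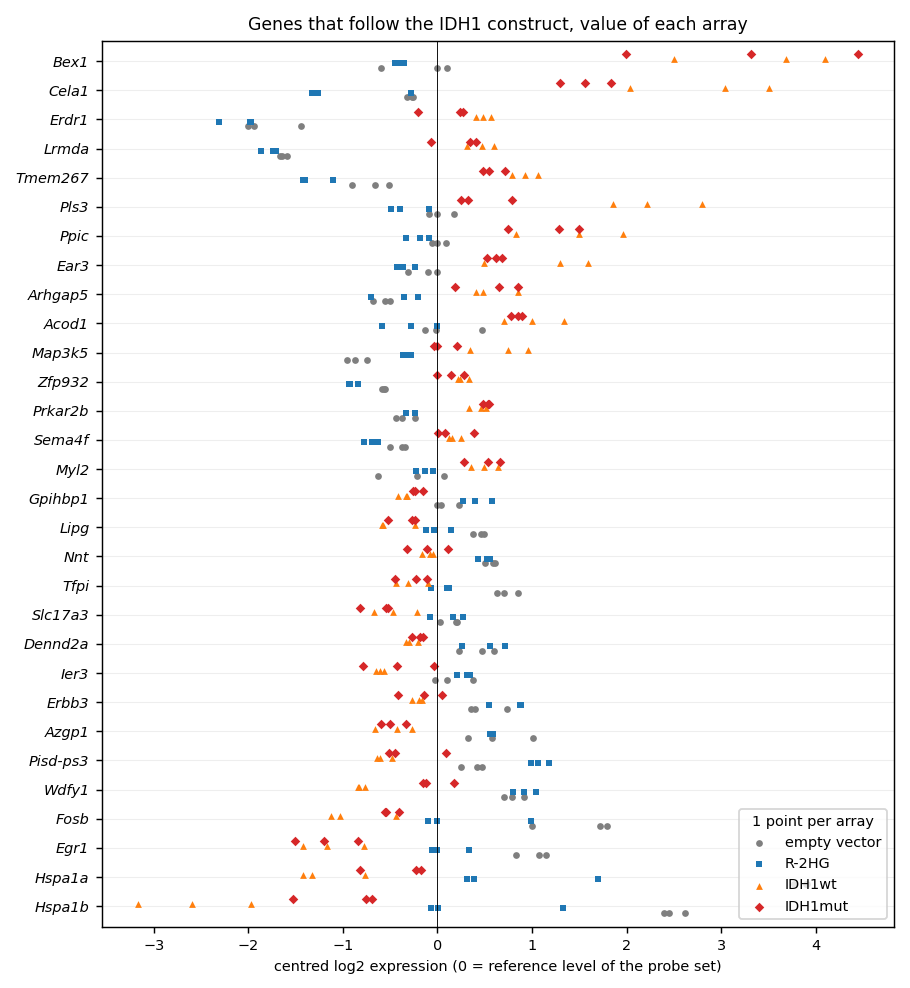
Centred log2 expression in each of the 12 arrays for the 15 genes with the largest difference in each direction among those that follow the construct, 1 point per array. By the rule that chose these genes, the IDH1wt and IDH1mut points lie on 1 side of the empty vector and R-2HG points in each. Erdr1, Lrmda and Tmem267 separate by a wide gap, whereas Ier3, Tfpi and Slc17a3 separate narrowly.

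The remaining lower genes changed less. Erbb3, a receptor of the epidermal growth factor receptor family, ranged from -0.41 to 0.05 against 0.36 to 0.88 and differed by -0.82 ± 0.10 (adjusted p = 0.000538). Tfpi, an inhibitor of the tissue factor pathway of coagulation, ranged from -0.45 to -0.10 against -0.07 to 0.86, and its strata differed (-1.01 and -0.31, interaction adjusted p = 0.022). Lipg, the endothelial lipase, and Gpihbp1, which anchors lipoprotein lipase to capillaries, differed by -0.62 ± 0.08 and -0.54 ± 0.06. Vegfa, the vascular growth factor, differed by -0.49 ± 0.06 (adjusted p = 0.000659). Dennd2a, an exchange factor for Rab proteins, and Slc17a3, an organic anion transporter, differed by -0.71 ± 0.08 and -0.67 ± 0.09. In the stratum without 2HG, calls were lost for Erbb3 without IDH1wt replicate 3 (adjusted p = 0.104), for Gpihbp1 without IDH1wt replicate 2 (adjusted p = 0.111), for Vegfa and Slc17a3 without empty vector replicate 3 (adjusted p = 0.0873 and 0.18) and for Dennd2a without empty vector replicate 2 (adjusted p = 0.0603). In the stratum with 2HG, Tfpi lost its call without IDH1mut replicate 2 (adjusted p = 0.166) and Lipg without IDH1mut replicate 1 (adjusted p = 0.122). Lower too were Lrg1, Il15ra, Mtus2 and Myoz1, with differences from -0.46 to -0.38.

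The remaining higher genes were Sema4f, a semaphorin (0.72 ± 0.07), Myl2, a regulatory myosin light chain (0.69 ± 0.11), and 13 genes with differences from 0.32 to 0.61. Among the 13 were Polr3g, a subunit of RNA polymerase III (0.61), Primpol, a primase and polymerase that restarts stalled replication (0.60), and Cr1l, a complement regulator (0.43). Gpr137b and its copy Gpr137b-ps differed by 0.60 and 0.57 and may share signal. Slamf8, a receptor of the SLAM family on myeloid cells, differed by 0.59, and Kcnk5, a potassium channel, by 0.46. Of these 15 genes, Gpr137b kept its calls in both strata with each array left out, and every other lost one for at least 1 array, such as Sema4f without empty vector replicate 2 (adjusted p = 0.0633) and Myl2 without IDH1wt replicate 3 (adjusted p = 0.144), both without 2HG. Just inside the threshold lay Tmem168, with an adjusted p of 0.0484 in the stratum without 2HG. Just outside lay Alpk3, Opn4 and Slc39a4, each with 0.0505 there and differences of -0.46, -0.45 and 0.76.

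Of the 93 measured genes directly beside a construct-following gene in RefSeq order, 31 (33.3%) were called for the construct, against 25.2% of all genes. Of the 93, 4 followed the construct themselves, the pairs Hspa1a with Hspa1b and Gpr137b with Gpr137b-ps. These 4 are among the 31 by the definition of the rule.

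Outside the immediate early, heat shock, NADPH and glycolysis lists, 0 members of the 29 gene lists followed the construct. Of 38 genes of MYC and ribosome biogenesis, 19 were called higher and 1 lower (median 0.25), against 13% and 12.2% of all genes. In IDH1wt against empty vector 0 were called, against 1.35% of all genes, and in IDH1mut against R-2HG 28 were higher, against 20.3%. Of 26 stem and progenitor genes, 11 were called higher and 0 lower, against the same 13% and 12.2%. Without 2HG 0 passed, against 1.35% of all genes. With 2HG 17 rose, against 20.3% of all genes, among them Mecom (-0.07 without and 1.80 with 2HG; interaction adjusted p = 0.00107) and Cd34 (0.18 and 1.01; interaction adjusted p = 0.0207). Mecom is a transcription factor of haematopoietic stem cells and Cd34 a progenitor surface protein. The Mecom probe sets did not move alike with 2HG: 1438325_at differed by 3.96 and 1422295_at by -0.36 (adjusted p = 0.0962).

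Of 26 genes for cholesterol and fatty acid synthesis, 9 were called higher and 1 lower, against 13% and 12.2% of all genes, and 1 rose in IDH1wt against empty vector, against 0.788%. That gene, Elovl6, a fatty acid elongase, passed in both strata (0.47 and 0.69) with overlapping arrays. Sqle, squalene epoxidase, did not overlap between the groups and differed by 0.85 ± 0.14 (adjusted p = 0.00276), with 0.48 (adjusted p = 0.241) without and 1.22 (adjusted p = 0.00153) with 2HG. Of 36 TET and other 2-oxoglutarate dioxygenase genes 4 were called higher and 1 lower. That is 13.9% called, against 25.2% of all genes. Tet2 differed by 0.06 (adjusted p = 0.555). Of 19 DNA methyltransferase and Polycomb genes 4 were called higher and 1 lower, or 26.3%, which is near the 25.2% of all genes. Dnmt3a, a de novo DNA methyltransferase, differed by 0.20 (adjusted p = 0.302) without and 0.50 (adjusted p = 0.00292) with 2HG.

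Hoxa9 and its cofactor Meis1 did not pass in the mean difference. Hoxa9 differed by -0.01 (adjusted p = 0.902), with 0.30 without and -0.32 with 2HG (interaction adjusted p = 0.0135). Neither Hoxa9 probe set passed without 2HG. With 2HG 1421579_at passed (-0.48, adjusted p = 0.0345) and 1455626_at did not (-0.15, adjusted p = 0.242). Whether they detect the introduced HoxA9 was not tested. Meis1, a HOX cofactor, differed by -0.26 and 0.82 (interaction adjusted p = 0.0191). With 2HG its probe sets differed by 1.91 (1450992_a_at), 0.87 (1443260_at) and -0.32 (1459423_at). All passed there, the last in the opposite direction (adjusted p = 0.0329). Of 11 genes of the Hoxa cluster and cofactors 5 were called lower and 0 higher, against 12.2% and 13% of all genes. Cdkn2a, the p16 and p19 cell cycle inhibitor locus, differed by -0.87 ± 0.15 (adjusted p = 0.00333) with overlapping arrays. It ranged from -1.60 to -1.5 in IDH1mut and from -0.05 to 0.31 in IDH1wt, against -0.76 to -0.28 in R-2HG and 0.26 to 1.22 in empty vector. In the stratum without 2HG it did not pass (-0.74, adjusted p = 0.105).

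**Figure D5:**
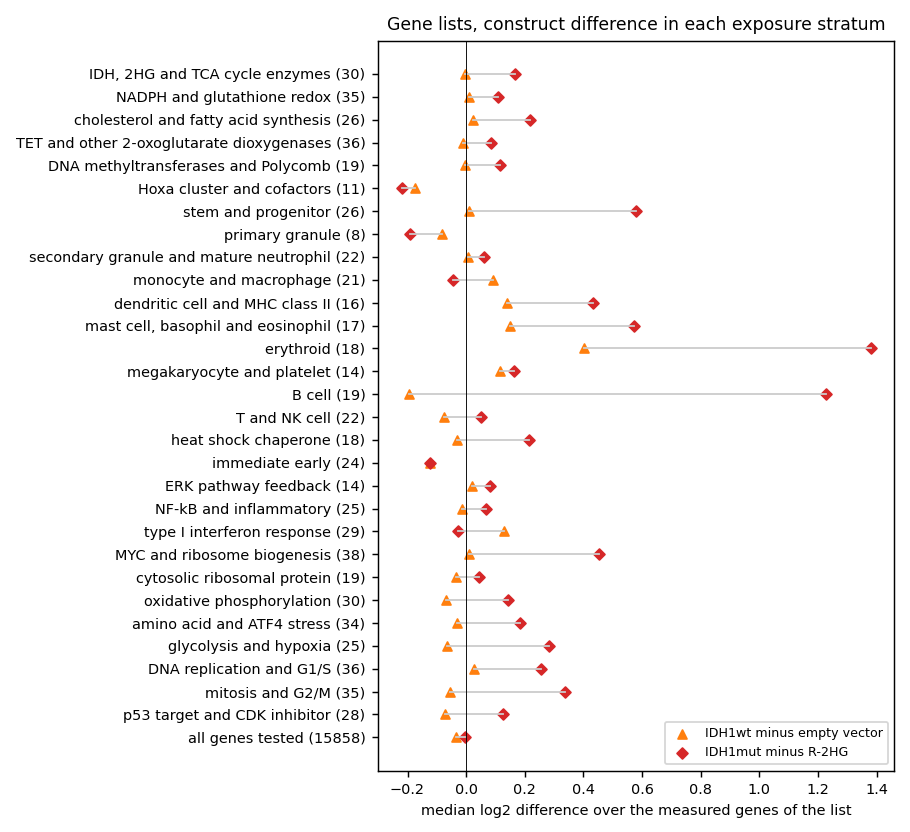
Median log2 difference over the measured genes of 29 lists and over all genes, without 2HG (triangles) and with 2HG (diamonds), with the number of measured genes in parentheses. The triangles lie near 0 for most lists, with erythroid genes highest at 0.40, while the diamonds reach 1.38 for erythroid and 1.23 for B cell genes. For immediate early genes both symbols lie at -0.12.

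Of the marker lists for other cell types, the erythroid list had the largest share of genes called. Of 18 erythroid genes 10 were called higher and 1 lower with the construct (median 0.94), against 13% and 12.2% of all genes. Without 2HG 0 were called, against 1.35% of all genes, and with 2HG 15 were higher, against 20.3%. The median of the list was -1.64, -1.88 and 0 in the R-2HG arrays, 0.18 to 0.47 in IDH1mut, -1.04 to 0.29 in IDH1wt and -0.86 to -0.63 in empty vector. R-2HG replicates 1 and 2 were the lowest arrays, and R-2HG replicate 3 lay above all empty vector arrays. Of 19 B cell genes 4 were called in the mean difference, all higher (21.1%, against 25.2% of all genes), and 11 were higher with 2HG, against 20.3%. Their list medians ran from -0.40 to -0.06 in R-2HG, -0.33 to 0.50 in IDH1wt, 0 to 1.04 in empty vector and 0.29 to 1.24 in IDH1mut, so that R-2HG overlapped with IDH1wt. Of 17 mast cell, basophil and eosinophil genes 2 were called, both higher (11.8%, against 25.2% of all genes). Their list medians were -1.35, -1.47 and 0 in R-2HG against -0.44 to 0.42 in the other groups. Of 16 dendritic cell and MHC class II genes 2 were called, both higher (12.5%, against the same 25.2%). Their list medians were -0.64, -0.56 and 0.29 in R-2HG against -0.205 to 0.331 in the other groups. In IDH1mut against R-2HG the list medians were 0.16 for megakaryocyte and platelet, -0.05 for monocyte and macrophage and 0.05 for T and NK cell genes. In no marker list was more than 1 gene called in IDH1wt against empty vector. In bulk samples fewer cells of a type and less RNA per cell cannot be told apart, and the part of other cells in the construct differences was not tested.

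Among marker genes of the expected myeloid cells, 3 of 8 primary granule genes were called lower and 0 higher, against 12.2% and 13% of all genes. Elane, neutrophil elastase, differed by -0.48 ± 0.09 (adjusted p = 0.00541) and Prtn3, proteinase 3, by -0.28 ± 0.07 (adjusted p = 0.0182). Neither passed without 2HG. For secondary granules and mature neutrophils 8 of 22 genes were called higher and 0 lower, against 13% and 12.2%, and in IDH1wt against empty vector 0 were called, against 1.35%.

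Some genes with a large mean difference were set by 1 group. Ptprg, a receptor tyrosine phosphatase, stood at 2.52, 3.33 and 3.14 in empty vector and between -0.21 and 0.06 in the other 9 arrays. Its mean difference of -1.61 ± 0.11 (adjusted p = 9.6e-06) came from -3.12 without and -0.09 with 2HG. Perp, a p53 target in apoptosis, stood at 1.62, 2.12 and 1.92 in IDH1wt and between -0.72 and 0.16 in the other arrays, and differed by 2.16 without and 0.37 (adjusted p = 0.159) with 2HG. Neither gene followed the construct under the rule.

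The interaction of construct and exposure called 1672 genes (10.5%), 1239 (7.81%) with a higher and 433 (2.73%) with a lower difference under 2HG. In 22 genes both strata passed in opposite directions. Tctex1d1, a dynein light chain family gene, stood from 1.36 to 1.53 in empty vector, -0.26 to 0.00 in IDH1wt, -2.79 to -2.61 in R-2HG and -0.28 to 0.66 in IDH1mut. The vector-only arrays lay on both sides of the construct arrays, and the strata gave -1.61 and 2.79 (interaction 4.40, adjusted p = 9.23e-06). Crhbp, which binds corticotropin-releasing hormone, gave -2.54 and 0.86. Olfm4, a neutrophil granule protein, gave 0.84 and -1.36, and Acss2, which makes acetyl-CoA from acetate, 0.70 and -0.79. Without R-2HG replicates 1 and 2 the interaction called 89 genes.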

How the data were processed

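Total RNA of sorted GFP-positive marrow cells was measured on 12 Affymetrix arrays. The authors deposited log2 values made with RMA, per the submitters' processing notes. The values are centred per probe set, and how this was done is not given in the sources used here. In the platform annotation 28805 of 32533 probe sets had 1 symbol and were used, while 757 had several and 2971 none. Of 15858 genes, 15743 were found in RefSeq and 0 symbols changed. Genes were fitted in R 4.3.3 with limma 3.58.1 (lmFit and eBayes, 4 group means, 8 residual and 3.96 prior degrees of freedom), with two-sided tests and Benjamini-Hochberg adjustment over all genes at 0.05. The fit was tested on simulated data. Alternatives were a plain and an additive fit, a replicate block, array weights, robust eBayes, a second quantile normalization, other choices of probe set, an SD filter at the 30th percentile, a minimum of 1.5-fold, and leaving arrays out. Figures used matplotlib 3.10.9.

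Genes and lists were chosen with earlier results of these data known. Named by rule were the 15 largest differences in each direction among construct-following genes, 2 genes of each list, a fixed set, and 5 genes in each direction with opposite strata. Not every gene the rule names is given, and those outside it are marked or are other construct-following genes.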

Additional observations from a re-analysis of the deposited data

Results flagged for a closer look

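In 28 of the genes described here, the construct difference depended on the exposure, by the interaction term of the limma model (IDH1mut minus R-2HG, less IDH1wt minus empty vector). A positive interaction means a higher difference under 2HG. In the 22 genes called in opposite directions, of which the 10 with the smallest p are given here, this was part of how they were chosen. It was 4.40 for Tctex1d1, 3.40 for Crhbp, 1.49 for Ttc30a1, 1.31 for H1f4 and 1.05 for Il17rb, which were lower with IDH1wt and higher with IDH1mut. It was -2.19 for Olfm4, -1.49 for Acss2, -1.36 for Raph1, -1.08 for Bnip5 and -0.82 for Pde1b, which went the other way.

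Of the construct-following genes, 8 of 49 had such a difference in size. Among all genes the interaction was called in 1672 of 15858 (10.5%). Those lower with the construct fell more without 2HG: Hspa1a 3.83, Hspa1b 3.65, Fosb 1.57, Tfpi 0.70, Wdfy1 0.67 and Lipg 0.57. Both that were higher rose more without 2HG: Pls3 -1.49 and Map3k5 -1.16. Among the other genes named, the interaction was 3.03 for Ptprg, 1.87 for Mecom, 1.39 for Fos, 1.08 for Meis1, 0.84 for Cd34, 0.66 for Suclg2, 0.66 for Tceal9, 0.54 for Idh2, -0.61 for Hoxa9 and -1.79 for Perp. Dixon's test for a single outlying sample was not applied to groups of 3 arrays.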

How the results depend on the processing

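For the construct, 3992 genes were called. The count was 144 in the plain fit (3768 at an unadjusted p under 0.05), 2042 in the additive fit, 6460 with array weights, 1810 among genes with 1 probe set, 292 with a minimum of 1.5-fold, 2289 to 5319 with 1 array left out, and 666 without R-2HG replicates 1 and 2. For the interaction, 1672 became 4787 with array weights, 672 with 1 probe set, 792 with 1.5-fold, 446 to 3262 with 1 array left out and 89 without R-2HG replicates 1 and 2. For IDH1wt against empty vector, 214 became 1388 with array weights, 419 after quantile normalization, 382 with the probe set of highest SD, 111 with 1 probe set, 119 with 1.5-fold and 84 to 375 with 1 array left out. For IDH1mut against R-2HG, 5714 became 2830 with 1 probe set, 1031 with 1.5-fold, 3109 to 6503 with 1 array left out and 336 without R-2HG replicates 1 and 2. The construct-following genes, 49, became 155 with array weights, 79 after quantile normalization, 27 with 1 probe set, 22 to 93 with 1 array left out and 29 without R-2HG replicates 1 and 2. The lower counts with 1 probe set come from fewer genes tested and those with 1.5-fold from the added criterion. The cause of the other changes was not tested.

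Replicate numbers did not pair the arrays: same-numbered arrays of different groups correlated from -0.152 to 0.124, and 2 of 12 correlated best with their own number. With a replicate block, the counts were 3629 for the construct, 1117 for the interaction, 147 and 5346 for the strata, and 33 for the construct-following genes.

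Signs turned in genes that were uncalled and near 0 in the fit reported above. Pgd was 0.0018 after quantile normalization, 0.0252 with the probe set of highest SD and 0.0415 without R-2HG replicates 1 and 2. Glud1 was 0.0063 without R-2HG replicates 1 and 2. Tet2 was 0 with array weights. With 1 array left out, Glud1 ran from -0.0628 to 0.0017 and Hoxa9 from -0.0573 to 0.0142. Idh3a turned to -0.44 with the probe set of highest SD and was called there (limma adjusted p = 0.0271). All 49 construct-following genes kept their direction without R-2HG replicates 1 and 2. With 3 arrays per group the number of arrays limits precision.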
